A study of Mus musculus with 8 samples.

Results

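Hedgehog signalling was followed through 9 genes in sorted mouse hair follicle stem cells, namely the ligand gene Shh, the receptor gene Ptch1, the signal transducer Smo, the transcription factor genes Gli1, Gli2 and Gli3, the inhibitors Hhip and Sufu, and the co-receptor gene Gas1. They were taken by symbol from the deposited expression table, where all 9 members were found among 46517 genes. The study used bulk RNA sequencing to compare stem cells that lacked the transcription factors NFIB, NFIX or both with cells that kept them. Each library came from a different male mouse at postnatal day 70, when back-skin follicles are in the second resting phase (telogen), and each of 4 genotypes had 2 libraries. Wild-type animals (WT) carried NFIBfl/fl, NFIXfl/fl and R26-YFPfl/fl without a Cre, so their floxed alleles were intact. The NFIB-cKO animals carried Sox9-CreER, NFIBfl/fl and R26-YFPfl/fl. The NFIX-cKO animals carried Sox9-CreER, NFIXfl/fl, R26-YFPfl/fl and, in addition, 1 floxed Nfib allele (NFIBfl/+), so that group is not deficient in NFIX alone. The double knockout (NFIB/X-dKO) carried Sox9-CreER, NFIBfl/fl, NFIXfl/fl and R26-YFPfl/fl. Sox9-CreER acts where the Sox9 promoter is active, which includes the bulge. All cells were sorted as integrin α6+, CD34+, Sca-1-, and a YFP gate was added for knockout cells but not for WT cells, so Cre, the YFP gate and genotype cannot be told apart in any comparison with WT.

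Hedgehog ligands such as SHH bind PTCH1 on a receiving cell, which lifts the block that PTCH1 places on SMO and lets GLI proteins act as activators at their target genes. GLI1 and PTCH1 are themselves encoded by target genes and are widely used as readouts of the pathway, HHIP is a decoy that captures ligand at the cell surface, and GAS1, BOC and CDON are co-receptors that help the ligand reach PTCH1. In skin, SHH made by hair progenitors and by sensory nerves acts on follicle epithelium and on the dermal papilla, and the upper bulge is known for cells that express Gli1.

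Sequence upstream of the start site is shown for Hhip and Gas1, the members with the lowest unadjusted p values between genotypes, and for the transducer gene Smo, which held the motif matches. RefSeq promoters (GRCm38.p6) were matched for 7 of the 9 members, all but Shh and Gli1. Each sequence holds the 250 bases before the annotated start, written 5′ to 3′ on the gene's strand, and capitals mark the short NFI motif TTGGC or its reverse complement. The Hhip window is chr8:80058009-80058258 on the minus strand, the Gas1 window is chr13:60177536-60177785 on the minus strand, and the Smo window is chr6:29735247-29735496 on the plus strand.
Hhip: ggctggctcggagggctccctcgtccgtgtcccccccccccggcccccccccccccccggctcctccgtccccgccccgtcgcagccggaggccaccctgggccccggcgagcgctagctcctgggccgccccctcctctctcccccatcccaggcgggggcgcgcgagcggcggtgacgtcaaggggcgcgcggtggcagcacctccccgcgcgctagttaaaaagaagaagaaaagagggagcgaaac
Gas1: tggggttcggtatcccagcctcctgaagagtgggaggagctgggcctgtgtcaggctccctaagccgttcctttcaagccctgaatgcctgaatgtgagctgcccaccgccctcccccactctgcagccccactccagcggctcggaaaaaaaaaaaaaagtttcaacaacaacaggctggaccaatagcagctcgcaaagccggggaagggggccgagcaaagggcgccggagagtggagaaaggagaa
Smo: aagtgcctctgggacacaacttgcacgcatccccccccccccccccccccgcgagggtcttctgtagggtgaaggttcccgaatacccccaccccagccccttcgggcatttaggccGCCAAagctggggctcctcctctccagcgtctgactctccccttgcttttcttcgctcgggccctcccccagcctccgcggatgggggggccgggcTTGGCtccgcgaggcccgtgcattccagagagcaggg
The Smo window held 2 of these motifs, 133 bases before the start on the opposite strand and 37 bases before it on the gene's strand. The Sufu window also held 2 matches, at 138 and 44 bases before its start, and the other 5 matched members held no match. Of 32851 RefSeq promoter windows of this length, 41.5% held at least 1 of them. The full palindromic NFI site, facing copies of the short motif with a spacer between them, was searched on both strands and was in no member window and in 0.0365% of all windows. The GLI site GACCACCCA was likewise in no member window and in 0.225% of all windows. Such matches describe letters in a window and carry no measurement of binding.

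Expression was deposited as TPM, an abundance scaled to transcript length and to the library's total, so levels can be compared between genes of a library. Between libraries TPM compares shares of each total. Median-of-ratios scaling factors ran from 0.877 in NFIX-cKO 88 to 1.11 in NFIB/X-dKO 33, so some differences are also given after that scaling. Expected read counts, which show depth, were in hand for 5 of the 8 libraries and summed to 57173266 to 66854625 per library. For NFIB-cKO 81 and for both WT libraries the depth is unknown. Libraries are named by genotype and animal number, and the numbers fall into a low range (32 to 36) and a high range (81 to 88). The low range holds both animals of NFIB/X-dKO and the high range both of NFIB-cKO, while WT and NFIX-cKO are split between them. Each of the 7 bulge markers (Cd34, Itga6, Krt15, Sox9, Lhx2, Krt5 and Krt14) had at least 75.7 TPM in every library, though Lhx2 fell in NFIB/X-dKO (-1.42 ± 0.15 against WT, limma, adjusted p = 0.00612). Of 9 markers of dermal fibroblasts and papilla, 7 were under 1 TPM in every library, Pdgfra, Dcn and Lum among them, and the summed level was 24.8 to 43.0 TPM in WT and NFIX-cKO and 56.2 to 87.7 TPM in NFIB-cKO and NFIB/X-dKO, where Col1a1 alone had 53.3 to 77.3 TPM. Col1a2, the other marker of that list above 1 TPM, went the opposite way, with 2.17 to 9.22 TPM in NFIB-cKO and NFIB/X-dKO and 8.01 to 33.56 TPM in WT and NFIX-cKO. All 4 markers of muscle and pericytes stayed under 1 TPM. The 4 markers of interfollicular and suprabasal epidermis (Ly6a, Krt1, Krt10 and Lor) were each at 3.46 TPM or more in every library. They summed to 700 to 1275 TPM in WT, 373 to 443 in NFIB-cKO, 517 to 2120 in NFIX-cKO and 1503 to 1545 in NFIB/X-dKO. Krt10 made up most of these sums, at 295.61 to 1596.12 TPM. Their part in the values of the 9 genes was not tested. Total Nfib was 148 to 389 TPM over the libraries with its highest values in NFIB/X-dKO, and total Nfix was 123 to 158 TPM. Which exons were floxed is not given in the sources used here, so these totals check no label.

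Gas1 was by far the most abundant of the 9 members, at 163 ± 46.4 TPM (SD, n = 8 libraries), above 95.1% of the genes tested by mean level. Smo followed at 56.9 ± 7.28 TPM and Gli1 at 52.8 ± 17.6 TPM, and neither led the other, since Smo was the higher in 4 of 8 libraries. Gli2 averaged 25.1 ± 5.04 TPM and was below Gli1 in all 8 libraries. Ptch1 at 11.3 ± 2.75 TPM, Sufu at 11.2 ± 1.21 TPM and Gli3 at 10.3 ± 1.13 TPM lay within their spreads of each other. Hhip was low at 1.84 ± 0.910 TPM, and Shh was lowest at 0.0613 ± 0.0452 TPM. Gas1 exceeded Smo, Gli2 exceeded Ptch1, Gli3 exceeded Hhip and Hhip exceeded Shh in all 8 libraries. Across libraries the highest and lowest values differed 1.31-fold for Sufu, 1.37-fold for Gli3 and 1.39-fold for Smo, but 3.95-fold for Hhip.

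**Figure D1:**
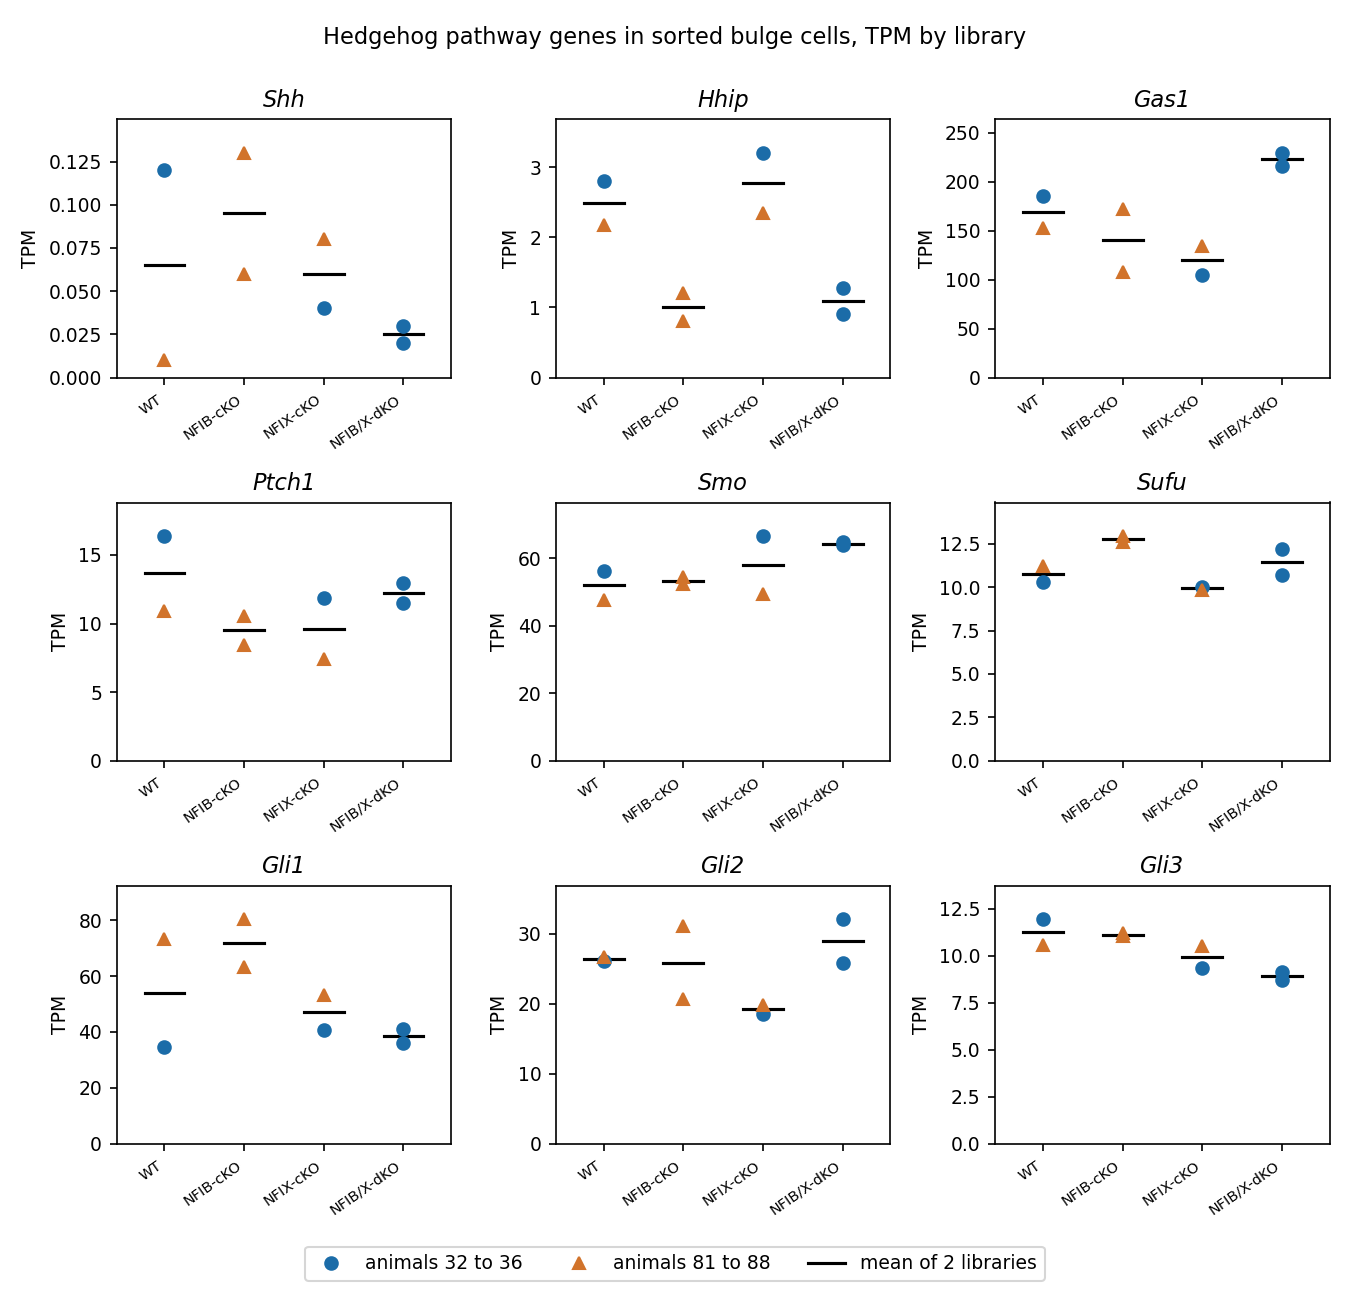
Level of each of the 9 genes in TPM in each library, grouped by genotype, with each point 1 animal, the symbol giving the animal number range and the line the mean of 2 libraries. Hhip sits at 0.81 to 1.28 TPM in both genotypes with NFIB deleted and at 2.17 to 3.2 TPM in the other genotypes, while both NFIB/X-dKO libraries hold the highest Gas1 levels.

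Differences between genotypes were tested with limma on log2(TPM + 1), with adjustment over the 15434 genes that had at least 1 TPM in at least 2 libraries, and a gene was called at an adjusted p under 0.05. Shh did not pass that filter, which left 8 of the 9 members tested. None of the 8 tested members was called by limma in any of the 7 comparisons made, in which 0.117% to 2.88% of all tested genes were called. On the log2(TPM + 1) scale differences of low genes such as Hhip are understated. The libraries are of bulk RNA, so fewer cells of a type and less RNA per cell cannot be told apart in any of them.

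Ligand expression was close to nil in the sorted cells. Shh (ENSMUSG00000002633, chr5:28456815-28467256) was at 0.12 and 0.01 TPM in WT, 0.13 and 0.06 in NFIB-cKO, 0.04 and 0.08 in NFIX-cKO, and 0.02 and 0.03 in NFIB/X-dKO. Its expected counts were 2 to 10 in the 5 libraries with counts, and every knockout genotype overlapped WT. The antisense genes Gm26894 and 9530036O11Rik share 361 and 446 exon bases with Shh, and whether the counting used strand was not given, so their reads cannot be told apart. The related ligands Ihh (0.02 to 0.16 TPM) and Dhh (0.13 to 0.40 TPM) were also under 1 TPM in every library. Of the 9 other genes for ligands and their release, 4 passed the filter, and none of these 4 was called in any comparison.

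The ligand decoy Hhip (ENSMUSG00000064325, chr8:79965851-80058006) was the member most sharply divided by genotype. It was at 2.8 and 2.17 TPM in WT, 0.81 and 1.21 in NFIB-cKO, 3.2 and 2.35 in NFIX-cKO, and 1.28 and 0.9 in NFIB/X-dKO. All 4 libraries with both Nfib alleles floxed and Cre were therefore below all 4 others, and the genotypes with and without that deletion did not overlap. Against WT the log2(TPM + 1) difference was -0.80 ± 0.24 (SE, limma, 2 libraries against 2, 95% interval -1.37 to -0.22, adjusted p = 0.222) in NFIB-cKO and -0.74 ± 0.24 (interval -1.31 to -0.17, adjusted p = 0.195) in NFIB/X-dKO. NFIX-cKO, at 0.11 ± 0.24 (interval -0.46 to 0.68, adjusted p = 0.986), lay within the spread of WT. Pooling the genotypes by NFIB deletion, 4 libraries against 4, the difference was -0.82 ± 0.17 (interval -1.23 to -0.42, unadjusted p = 0.00191, adjusted p = 0.0611 in limma), with a ratio of mean TPM of 0.399. Hhip missed the threshold in that comparison, where 382 of all tested genes were called. It was past it with the animal number range as a covariate (limma, adjusted p = 0.0240), in a fit that called 1214 genes. Hhip was also called after median-of-ratios scaling of TPM (difference -0.89, adjusted p = 0.0353, 326 genes called) and without the variance trend (adjusted p = 0.0412, 392 genes called). It was not called in the other 10 of 13 settings, where the adjusted p reached 0.314. Other marker lists divided the libraries in the same way: fibroblast markers summed to 56.2 to 87.7 TPM where NFIB was deleted and 24.8 to 43.0 TPM elsewhere (carried by Col1a1, with Pdgfra, Dcn and Lum at most 0.34 TPM in all 8), 4 sebaceous gland markers to 30.7 to 38.0 against 54.5 to 100.1 TPM, and 4 melanocyte markers to 24.1 to 30.9 against 9.26 to 21.1 TPM. Among bulge markers, Lhx2 was at 103.55 to 188.8 TPM where NFIB was deleted and 209.88 to 314.28 TPM elsewhere, and Krt14 at 1901.47 to 3057.57 against 3143.46 to 4692.03 TPM. The other bulge markers (Cd34, Itga6, Krt15, Sox9 and Krt5) overlapped between the same sides. Of these, Itga6 leaned the opposite way, at 162.15 to 218.04 TPM where NFIB was deleted and 123.68 to 167.28 TPM elsewhere. Each of the 4 tested hair germ markers also divided the libraries by NFIB deletion. Pdgfa was at 104.51 to 123.47 TPM where NFIB was deleted (73.96 to 85.84 elsewhere) and Cdh3 at 53.03 to 64.98 (36.16 to 50.15). Lef1 was at 1.33 to 1.8 TPM (2.11 to 5.8) and Dkk3 at 185.22 to 293.63 (303.39 to 367.28). Lgr6, alone of the upper follicle markers, did so too, at 7.27 to 14.55 against 18.43 to 43.23 TPM. The part of all these markers in the Hhip values was not tested.

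The expected counts of Hhip were 309.9 and 214.4 in NFIX-cKO 32 and 88, 121.4 and 106.3 in NFIB/X-dKO 33 and 36, and 156.5 in NFIB-cKO 85. On these counts edgeR's quasi-likelihood test of NFIB/X-dKO against NFIX-cKO gave a log2 difference of -1.27 ± 0.29 (adjusted p = 0.212). The ± here is the size of the difference divided by the square root of its F statistic, not a fitted SE. DESeq2 on the same libraries gave -1.28 with an adjusted p of 0.00931. Over all genes DESeq2 called 839 where edgeR called 59. The mean transcript length that RSEM assigned to Hhip was 2495 and 2117 bases in NFIX-cKO 32 and 88. It was longer where NFIB was deleted, at 2677 and 3153 in NFIB/X-dKO 33 and 36 and 3052 in NFIB-cKO 85. TPM divides counts by length, so these libraries were further apart in TPM than in counts. NFIB-cKO 85 and NFIX-cKO 88, for example, had 156.5 and 214.4 counts but 1.21 and 2.35 TPM. The part of length in the Hhip TPM differences was not tested. Hhip shares 175 exon bases with Gm27820 on the opposite strand, which was listed at 0 to 1.64 TPM, and their reads cannot be told apart without strand.

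Ptch1 (ENSMUSG00000021466, chr13:63508328-63573598), the receptor and a GLI target, was at 16.37 and 10.95 TPM in WT, 8.43 and 10.57 in NFIB-cKO, 11.85 and 7.42 in NFIX-cKO, and 11.51 and 12.99 in NFIB/X-dKO. WT 34 was the highest library, and NFIB-cKO alone had no overlap with WT. The differences from WT were -0.46 ± 0.27 (interval -1.11 to 0.18) in NFIB-cKO, -0.47 ± 0.27 (interval -1.12 to 0.18) in NFIX-cKO and -0.12 ± 0.27 (interval -0.77 to 0.52) in NFIB/X-dKO, with adjusted p values in limma of 0.578, 0.823 and 0.811. With the animal number range as a covariate the order of the knockouts turned, with -0.18 in NFIB-cKO and -0.41 in NFIB/X-dKO.

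The co-receptor gene Gas1 (ENSMUSG00000052957, chr13:60174405-60177365, minus strand, a single exon) had its highest mean in the double knockout and its lowest in NFIX-cKO. It was at 184.84 and 152.25 TPM in WT, 172.05 and 107.85 in NFIB-cKO, 104.99 and 134.35 in NFIX-cKO, and 229.2 and 216.03 in NFIB/X-dKO. Both NFIB/X-dKO libraries exceeded all 6 others, and both NFIX-cKO libraries were below WT, while NFIB-cKO overlapped WT. On the log2(TPM + 1) scale NFIB/X-dKO differed from WT by 0.41 ± 0.24 (limma, interval -0.16 to 0.97, adjusted p = 0.416), from NFIB-cKO by 0.70 ± 0.24 (interval 0.14 to 1.26, adjusted p = 0.273) and from NFIX-cKO by 0.90 ± 0.24 (interval 0.34 to 1.46, adjusted p = 0.179). NFIX-cKO differed from WT by -0.49 ± 0.24 (interval -1.06 to 0.07, adjusted p = 0.766), and NFIB-cKO by -0.30 ± 0.24 (interval -0.86 to 0.26, adjusted p = 0.694). The non-additive contrast takes the NFIB/X-dKO difference from NFIB-cKO and subtracts the NFIX-cKO difference from WT. It was 1.2 ± 0.34 for Gas1 (limma, interval 0.40 to 1.99, unadjusted p = 0.00900, adjusted p = 0.441). The NFIX-cKO difference from WT also holds Cre, the YFP gate and 1 floxed Nfib allele, so this contrast cannot isolate loss of NFIX. None of these Gas1 differences passed the test over all genes. After median-of-ratios scaling the Gas1 difference of NFIB/X-dKO from WT was 0.23, and its difference from NFIB-cKO was 1.04 without NFIB-cKO 81 and 0.37 without NFIB-cKO 85. Without NFIB-cKO 85, the NFIB-cKO difference from WT was 0.04. In the same NFIB/X-dKO libraries the 4 hair matrix markers summed to 23.2 to 27.6 TPM (14.2 to 21.4 in the 6 others), the 6 hair germ markers to 344 to 372 TPM (436 to 501) and the 4 upper follicle markers to 112 to 116 TPM (117 to 191), and their part in the Gas1 values was not tested. The hair germ sum followed Dkk3, which fell in NFIB/X-dKO (193 against 320 TPM in WT, difference -0.73 ± 0.13, limma, adjusted p = 0.0372). Cdh3 (58.0 against 40.1 TPM) and Pdgfa (105.8 against 83.7 TPM) had higher means there, and higher still in NFIB-cKO (62.2 and 119 TPM). All of these hair germ markers divided the libraries by NFIB deletion, as given for Hhip. In the hair matrix list Hoxc13 (13.98 against 9.61 TPM in WT) and Msx2 (7.115 against 3.605 TPM) had higher means. Dlx3 did not (3.6 against 3.825 TPM), and Foxn1 was highest in NFIX-cKO 32 (1.16 TPM). In the upper follicle list Plet1 (24.7 against 53.3 TPM) and Gata6 (1.25 against 1.72 TPM) had lower means than in WT. Lrig1 was alike (73.8 against 74.5 TPM). Lgr6 (14.45 TPM) lay between NFIB-cKO (7.65 TPM) and WT (39.9 TPM), and divided the libraries by NFIB deletion, as given for Hhip.

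By counts, Gas1 differed between NFIB/X-dKO and NFIX-cKO by 0.63 ± 0.24 (log2, edgeR, adjusted p = 0.341). Gas1 also shares 589 exon bases with Gm48488 on the opposite strand, so reads of that transcript cannot be told apart from its own. Gas1's closest patterns over the 8 libraries, by Pearson's r of log2(TPM + 1) among 9891 genes of at least 5 TPM, were those of Akap8 (r = 0.96), AC165278.1 (r = 0.94) and Ttc13 (r = 0.92). These correlations are descriptions over 8 points that share the same libraries. Akap8 ran over a narrower range, from 43.6 TPM in NFIX-cKO 32 to 55.5 TPM in both NFIB/X-dKO libraries.

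The other co-receptors, named here after their values were seen because they bind the same ligand, had patterns of their own, whose difference from Gas1 was not tested. Boc was abundant at 128 to 161 TPM, and its NFIB/X-dKO level differed from WT by -0.06 ± 0.16 (limma, adjusted p = 0.839). Cdon was at 51.57 and 36.48 TPM in WT and at 23.7 to 31.6 TPM in the 6 knockout libraries, so every knockout genotype was below WT without overlap. Its NFIB/X-dKO difference from WT was -0.68 ± 0.23 (limma, adjusted p = 0.197). None of the 6 tested genes among 7 other receptors and co-receptors was called in any comparison.

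Smo (ENSMUSG00000001761, chr6:29735503-29761365), which carries the signal across the membrane, was at 56.18 and 47.68 TPM in WT, 54.36 and 52.35 in NFIB-cKO, 66.49 and 49.38 in NFIX-cKO, and 64.7 and 63.91 in NFIB/X-dKO. The double knockout lay above WT without overlap, by 0.31 ± 0.17 on the log2(TPM + 1) scale (limma, interval -0.09 to 0.71, adjusted p = 0.395), and by 0.13 after median-of-ratios scaling. Sufu (ENSMUSG00000025231, chr19:46396896-46488804), which holds GLI proteins back in the cytoplasm, was the steadiest member, at 10.29 and 11.21 TPM in WT, 12.94 and 12.58 in NFIB-cKO, 10.01 and 9.85 in NFIX-cKO, and 10.68 and 12.19 in NFIB/X-dKO. NFIB-cKO was above WT and NFIX-cKO below it without overlap, yet the differences were only 0.23 ± 0.15 (interval -0.13 to 0.59) and -0.10 ± 0.15 (interval -0.46 to 0.26), with adjusted p values in limma of 0.629 and 0.970. In NFIB/X-dKO the Sufu difference from WT was 0.08 ± 0.15, and it was -0.08 after scaling.

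All 24 other transducers of the signal were tested and 1 was called. Gpr161 (chr1:165295789-165326745), a ciliary receptor that keeps the pathway off, rose in NFIB/X-dKO. It was at 13.28 and 11.74 TPM in WT, 15.25 and 19.16 in NFIB-cKO, 14.23 and 14.03 in NFIX-cKO, and 24.14 and 26.06 in NFIB/X-dKO, and each knockout genotype lay above WT without overlap. The difference from WT in NFIB/X-dKO was 0.95 ± 0.16 (limma, interval 0.56 to 1.34, adjusted p = 0.0319), and 2.88% of all tested genes were called in that comparison. This call held in 6 of 16 other settings and was lost, for example, after median-of-ratios scaling (0.78, adjusted p = 0.0657) and against WT 34 alone, the WT animal of the same number range (0.87, adjusted p = 0.116). Leaving out WT 34, WT 82, NFIB-cKO 81, NFIB-cKO 85, NFIB/X-dKO 33 or NFIB/X-dKO 36 also ended it, with adjusted p values of 0.0545, 0.115, 0.0544, 0.0554, 0.231 and 0.308.

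Gli1 (ENSMUSG00000025407, chr10:127329882-127341974), the activator whose gene is the usual pathway readout, varied widely between the WT animals. It was at 34.52 and 73.27 TPM in WT, 63.17 and 80.23 in NFIB-cKO, 40.67 and 53.29 in NFIX-cKO, and 36.18 and 40.96 in NFIB/X-dKO. The knockout levels all overlapped WT, whose 2 animals spanned most of the range. Differences from WT were 0.49 ± 0.34 (interval -0.30 to 1.28) in NFIB-cKO, -0.11 ± 0.34 (interval -0.90 to 0.68) in NFIX-cKO and -0.38 ± 0.34 (interval -1.17 to 0.41) in NFIB/X-dKO, with adjusted p values in limma of 0.636, 0.989 and 0.557. The direction of each rested on 1 WT library: without WT 34 they were -0.04, -0.64 and -0.91, and without WT 82 they were 1.02, 0.42 and 0.15. NFIB/X-dKO was below NFIB-cKO without overlap, by -0.87 ± 0.34 (limma, unadjusted p = 0.0354, adjusted p = 0.279). Those genotypes also hold animals of different number ranges throughout, and with that range as a covariate the difference was -0.15 (adjusted p = 0.967). Fitted on the libraries of those genotypes alone, the same difference of -0.87 had an adjusted p of 0.0285, in a fit that called 3086 genes in place of 35. Gli1 shares 62 exon bases with Arhgap9 (1.49 to 3.17 TPM) and 265 with Gm47200, both on the opposite strand.

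Gli2 (ENSMUSG00000048402, chr1:118834132-119053619), the main activator downstream of SMO, was at 26.07 and 26.71 TPM in WT, 20.66 and 31.03 in NFIB-cKO, 18.49 and 19.88 in NFIX-cKO, and 25.8 and 32.03 in NFIB/X-dKO. NFIX-cKO was the lowest genotype and overlapped neither WT nor NFIB/X-dKO. The NFIX-cKO difference from WT was -0.44 ± 0.21 (limma, interval -0.94 to 0.06, adjusted p = 0.766), and NFIB/X-dKO exceeded NFIX-cKO by 0.56 ± 0.21 (interval 0.06 to 1.06, unadjusted p = 0.0324, adjusted p = 0.313). Against WT the double knockout differed by 0.12 ± 0.21, or -0.05 after scaling. Gli3 (ENSMUSG00000021318, chr13:15463235-15730026), which mainly yields the repressor form, was at 11.94 and 10.58 TPM in WT, 11.2 and 11.07 in NFIB-cKO, 9.35 and 10.51 in NFIX-cKO, and 9.15 and 8.7 in NFIB/X-dKO. NFIX-cKO and NFIB/X-dKO were below WT without overlap, by -0.17 ± 0.16 (interval -0.54 to 0.20) and -0.30 ± 0.16 (interval -0.67 to 0.07), with adjusted p values in limma of 0.923 and 0.373. Its highest and lowest values in all 8 libraries differed by 1.37-fold. Gli3 shares 188 exon bases with Gm6556 on the opposite strand (0.41 to 0.91 TPM).

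Among 16 other genes listed as GLI targets in some tissue, 11 were tested and 1 was called. Grem1 (chr2:113746164-113758646), which encodes a secreted BMP antagonist, fell in NFIB/X-dKO. It was at 300.52 and 182.69 TPM in WT, 109.23 and 84.98 in NFIB-cKO, 197.23 and 181.81 in NFIX-cKO, and 68.72 and 65.41 in NFIB/X-dKO. As with Hhip, all 4 libraries with NFIB deleted were below all 4 others. The marker sums and single markers that divided the libraries beside Hhip divide them in the same way here. Their part in the Grem1 values was likewise not tested. The difference from WT was -1.79 ± 0.24 in NFIB/X-dKO (limma, interval -2.35 to -1.23, adjusted p = 0.0142), and -1.27 ± 0.24 in NFIB-cKO, which was not past the threshold (adjusted p = 0.0815). With NFIB deleted against retained it was -1.38 ± 0.17 (limma, adjusted p = 0.0113), and by counts edgeR gave -1.75 ± 0.13 for NFIB/X-dKO against NFIX-cKO (adjusted p = 0.0457, or 0.414 and 0.506 without NFIB/X-dKO 33 or 36). The call against WT held in 13 of 16 other settings, the exceptions being no filter on low values (adjusted p = 0.0507) and leaving out NFIB/X-dKO 33 or 36 (adjusted p = 0.110 and 0.126). With NFIB deleted against retained it held in 11 of 14, the exceptions being the fits without NFIB-cKO 85, NFIB/X-dKO 33 or NFIB/X-dKO 36 (adjusted p = 0.0594, 0.0575 and 0.0639). Ptch1 and Gli1, counted among the 9 members and also GLI targets, were not called.

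**Figure D2:**
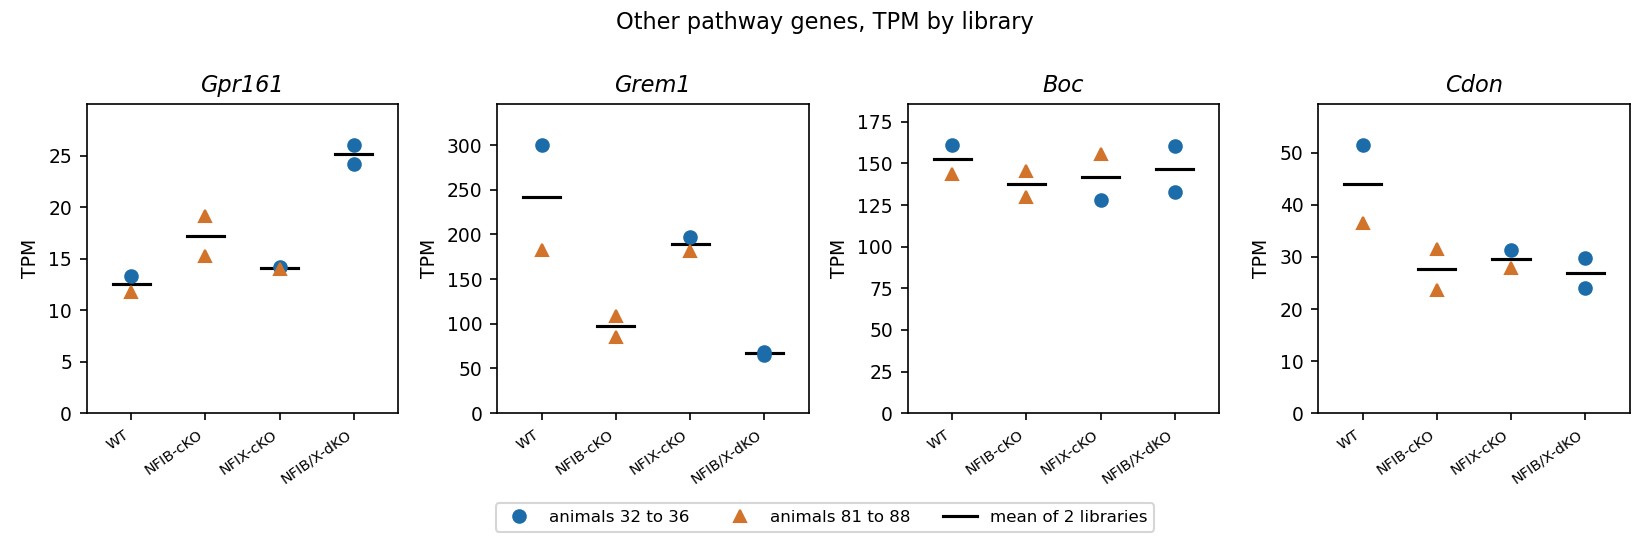
Levels in TPM of Gpr161, Grem1, Boc and Cdon in each library, grouped by genotype, with each point 1 animal, the symbol giving the animal number range and the line the mean of 2 libraries. Grem1 lies at 65.41 to 109.23 TPM where NFIB is deleted and at 181.81 to 300.52 TPM elsewhere, and Gpr161 is highest in NFIB/X-dKO.

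The counts of members were set beside the same counts over all genes. In NFIB/X-dKO against WT, 0 of 8 were called by limma while 2.88% of all 15434 tested genes were, and 1 (Hhip) had an unadjusted p under 0.05, as did 16.8% of all genes. For NFIB-cKO against WT the counts were 0 of 8 called (all genes 0.719%) and 1 (Hhip) at an unadjusted p under 0.05 (all genes 12.6%). For NFIX-cKO against WT they were 0 called (0.149%) and 0 at the unadjusted level (6.81%). In NFIB/X-dKO against NFIB-cKO, 0 members were called (0.227%) and 2, Gli1 and Gas1, had an unadjusted p under 0.05 (17.2%). In NFIB/X-dKO against NFIX-cKO, 0 were called (0.784%) and 3, Gli2, Hhip and Gas1, had an unadjusted p under 0.05 (14.5%). By counts, edgeR called 0 of 8 in that comparison (0.322% of 18349 genes). DESeq2 called 1 member, Hhip, in a fit that called 839 genes where edgeR called 59. With NFIB deleted against retained 0 members were called (2.48%) and 1, Hhip, reached the unadjusted level (15.4%). In the non-additive contrast 0 were called (0.117%) and 1, Gas1, reached it (9.43%).

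Separation of single libraries was common with 2 animals a group. In NFIB/X-dKO 4 of the 8 tested members did not overlap WT (Smo and Gas1 higher, Gli3 and Hhip lower), as did 55.5% of all tested genes. In NFIB-cKO 3 of 8 did not (Sufu higher, Ptch1 and Hhip lower), against 38.3% of all genes, and in NFIX-cKO 4 of 8 did not (Gli2, Gli3, Gas1 and Sufu, all lower), against 25.8%. With 4 libraries against 4, NFIB deleted against retained, Hhip was the 1 member of 8 without overlap, on the lower side. In that comparison 8.95% of all tested genes did not overlap, and 2.11% of all tested genes did not overlap and were lower. Between knockouts, 6 of 8 members did not overlap in NFIB/X-dKO against NFIB-cKO (all genes 72%) and 5 of 8 in NFIB/X-dKO against NFIX-cKO (all genes 56.4%). The median difference over the 8 members was -0.02 in NFIB/X-dKO, -0.03 in NFIB-cKO and -0.14 in NFIX-cKO, beside 0.16, 0.0048 and -0.05 over all tested genes. The comparisons with WT share their control libraries, and each gives its own values. Median-of-ratios scaling moved the median of all tested genes in NFIB/X-dKO against WT from 0.16 to 0.0058 and the share of called genes that were higher from 56.2% to 45.3%.

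**Figure D3:**
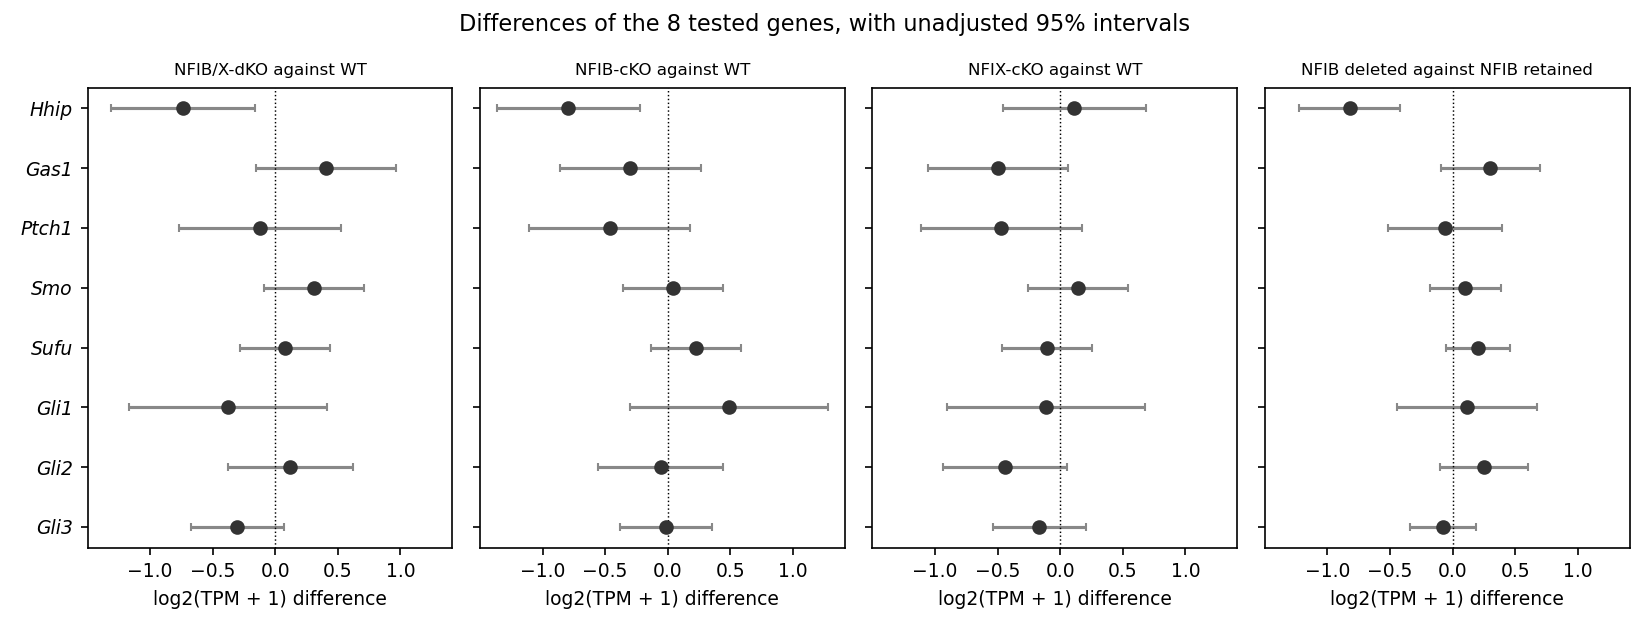
Difference in log2(TPM + 1) from limma with its 95% interval (unadjusted) for each of the 8 tested members, in the 3 knockouts against WT and with NFIB deleted against retained; the dotted line marks 0. Hhip alone has intervals that lie wholly below 0, in every panel but that of NFIX-cKO, and no member passed the adjusted threshold.

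For 3 members the libraries of the low and high animal number ranges did not overlap, a comparison that was added after the values were seen. Gli1 was at 38.1 ± 3.23 TPM (SD, n = 4) in animals 32 to 36 and 67.5 ± 11.8 TPM (n = 4) in animals 81 to 88, without overlap. With genotype in the model, the Gli1 difference of high minus low range was 0.72 ± 0.20 (limma, adjusted p = 0.0551), and it was 0.96 after median-of-ratios scaling (adjusted p = 0.0606). Within WT it was 1.06 and within NFIX-cKO 0.38, 1 animal against 1. Ptch1 went the opposite way, at 13.2 ± 2.22 TPM in the low and 9.34 ± 1.70 TPM in the high range, and was the only member called (-0.57 ± 0.14, limma, adjusted p = 0.0468, or -0.35 after scaling with adjusted p = 0.197). Smo was likewise lower in the high range without overlap (-0.33 ± 0.09, limma, adjusted p = 0.0528, or -0.09 after scaling with adjusted p = 0.528). This range separated many genes, since 15.8% of all tested genes were called (6.4% after scaling) and 32% did not overlap. The labels do not say whether the numbers mark litters, dates or batches. NFIB-cKO and NFIB/X-dKO each fall in 1 range, so range and genotype cannot be told apart between those groups without the WT and NFIX-cKO animals.

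The wider pathway was taken as 70 further genes for ligand release, receptors, transducers, GLI targets and the primary cilium, of which 59 were tested. In NFIB/X-dKO against WT 1 was called higher (Gpr161) and 1 lower (Grem1), a share near the 2.88% called over all genes, with a median difference of 0.14 beside 0.16 over all genes. In NFIB-cKO none was called higher or lower (median 0.19 beside 0.0048), nor in NFIX-cKO (median -0.08 beside -0.05). With NFIB deleted against retained, the same 2 genes were called, where 2.48% of all genes were (median 0.17 beside 0.10), Gpr161 at 0.60 ± 0.12 (limma, adjusted p = 0.0482) and Grem1 as above. The Gpr161 call there held in 3 of 14 other settings and was lost when any 1 of the 8 libraries was left out (adjusted p = 0.0659 to 0.277). All 15 genes of the primary cilium, the organelle through which Hedgehog signals pass, were tested and none was called in any comparison, with a median difference of 0.12 in NFIB/X-dKO against WT.

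**Figure D4:**
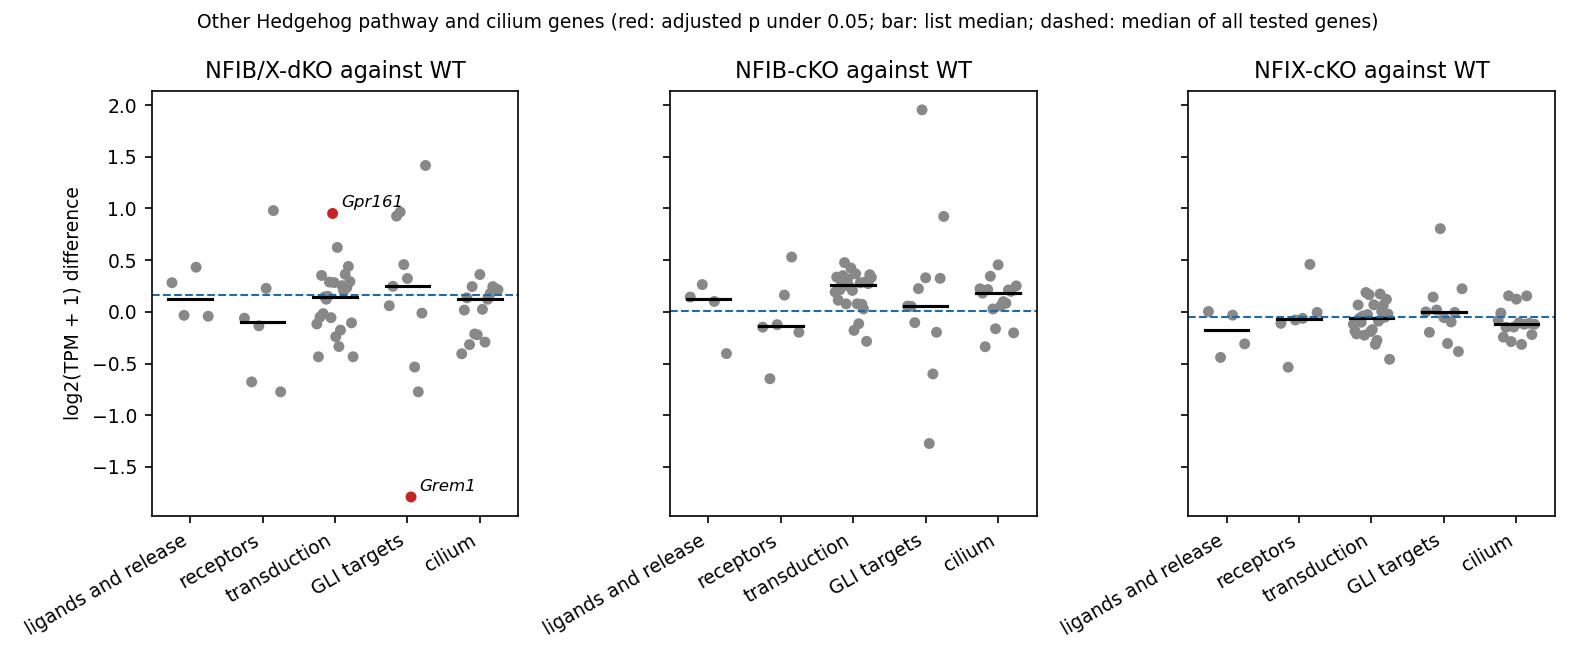
Difference in log2(TPM + 1) of each tested gene of the pathway lists, by list, in the 3 genotypes against WT, with each point 1 gene, solid bars the list medians, dashed lines the median of all tested genes and red the called genes. Grem1 at -1.79 and Gpr161 at 0.95, both in NFIB/X-dKO, are the only red points.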

How the data were processed

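RNA of sorted cells from 8 male mice was sequenced (TruSeq mRNA, paired-end, per the labels' protocols). The authors aligned reads with Bowtie2 2.2.9 and quantified them with RSEM 1.2.30 on mm10, per the submitters' processing notes. The deposited TPM table covered all 8 libraries, and the deposited gene tables with expected counts covered 5. TPM was fitted as log2(TPM + 1) with limma 3.58.1 (R 4.3.3), a variance trend and all 8 libraries sharing the spread (4 residual degrees of freedom). Genes needed 1 TPM in 2 libraries, and p-values were adjusted by Benjamini-Hochberg over 15434 genes. Expected counts, rounded, were tested with edgeR 4.0.16 (quasi-likelihood, 18349 genes) and DESeq2 1.42.0 between NFIX-cKO and NFIB/X-dKO, whose libraries all had them. The p-values rest on the spread between 2 animals per genotype, pooled over the genotypes fitted and moderated across genes. In limma the prior degrees of freedom were 3.10. With edgeR, ± gives the size of the difference divided by the square root of its F statistic. Intervals are at 95%. The 92 spike-in features were left out. Alternatives changed the pseudocount, filter, scaling, variance trend, libraries fitted and count tool. The scripts were tested on simulated data. Coordinates are from GENCODE M21 (GRCm38). Members and lists were chosen with earlier results of these data known. Genes named beyond the 9 were those past the test against WT, at most 4 a list, plus the 3 closest to Gas1 by Pearson's r, and Boc, Cdon, Ihh and Dhh, chosen after their values were seen.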

Additional observations from a re-analysis of the deposited data

How the results depend on the processing

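The count of members called was 0 in every comparison as reported. It became 1 (Hhip) in NFIB deleted against retained with median-of-ratios scaling, without the variance trend and with the animal number range as a covariate, 1 (Gli1) in NFIB/X-dKO against NFIB-cKO when those groups were fitted alone, and 1 (Hhip) by counts with DESeq2, which called 839 genes where edgeR called 59. By counts, leaving out 1 library gave 0 to 4 members: 4 without NFIX-cKO 32 (Gli1, Gli3, Hhip and Gas1) and 2 without NFIX-cKO 88 (Hhip and Gas1), in fits that assume the lone NFIX-cKO library to vary like the others and that called 6939 and 1741 genes, and 0 without NFIB/X-dKO 33 or 36. The cause was not tested. Every other alternative run left the count of members at 0, and a filter at 5 TPM removed Hhip from the test. Counts over all genes moved more: 445 in NFIB/X-dKO against WT became 40 to 622, 111 in NFIB-cKO became 11 to 200, 23 in NFIX-cKO became 12 to 44, 35 in NFIB/X-dKO against NFIB-cKO became 8 to 3086, 121 against NFIX-cKO became 6 to 169, 382 for NFIB deleted against retained became 63 to 1214, 18 in the non-additive contrast became 6 to 61, and 59 by counts became 0 to 6939. No paired analysis was possible because no animal number was shared between genotypes. Depth was unknown for 3 libraries, and Shh, with 2 to 10 expected counts, was too low to test.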
